A study of Homo sapiens with 12 samples.

Results

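The 10 genes described here belong to the YAP and TEAD axis: the coactivators YAP1 and WWTR1 (also called TAZ), the DNA-binding partners TEAD1 and TEAD4, and the genes CYR61, CTGF, ANKRD1, AMOTL2, AXL and LATS2, which are known for their transcription by these factors. They were taken by symbol from the gene counts of A549, a cell line from a human lung adenocarcinoma, as 10 of 26334 genes in the count tables, and all 10 passed the filter on low counts that left 15352 genes for testing. The cells were infected with a lentivirus carrying a non-targeting shRNA (control cells) or an shRNA against RNF113A (RNF113A-depleted cells), a protein of the spliceosome, and all of them were selected with puromycin at 1 µg/ml for 4 days. Within each kind of cell, 3 libraries came from untreated cells and 3 from cells exposed to Cisplatin at 25 µg/ml for 20 h, which gave 12 libraries in 4 conditions. The study asked how loss of RNF113A and DNA damage by Cisplatin change the transcripts of these cells. The study's methods call the 3 libraries of a condition biological replicates, without saying how they were grown apart, and the p-values measure the spread between them.

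The Hippo pathway is a kinase cascade that controls YAP1 and WWTR1. When the kinases LATS1 and LATS2 phosphorylate these coactivators, they are held in the cytoplasm or degraded, and otherwise they enter the nucleus, bind TEAD proteins and switch on genes of growth, adhesion and survival. The pathway acts mainly on the proteins, so mRNA levels of YAP1 and TEAD genes describe the supply of transcripts, and mRNA levels of target genes are a common readout of the activity of the axis. LATS2 and AMOTL2 are both targets and inhibitors of the axis.

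RNF113A mRNA was only slightly lower in the depleted cells. It stood at 20.3, 19.5 and 19.8 CPM (counts scaled to the library size with TMM factors) in untreated control cells and at 15.3, 15.8 and 16.8 CPM in untreated depleted cells, and the libraries did not overlap. The log2 change was -0.31 (SE 0.09, adjusted p = 0.0247 by edgeR's quasi-likelihood test). With Cisplatin the levels were 31.5, 28.9 and 27.7 CPM in control cells and 25.8, 24.3 and 29.9 CPM in depleted cells, which overlapped, and the log2 change was -0.14 (SE 0.09, adjusted p = 0.233). Within these libraries the names of the groups therefore rest on the labels more than on the mRNA of the target. The paper examined control and depleted A549 cells by western blot, and protein is not measured in these libraries.

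The libraries held 33859097 to 56071514 read pairs, of which 26220526 to 45721152 were assigned to genes. Of the 5 epithelial markers fixed for A549, KRT8 (1936 to 7450 CPM over the 12 libraries) and KRT18 (1402 to 6441 CPM) were abundant, CDH1 had 32.1 to 197 CPM, EPCAM 3.66 to 97.6 CPM and KRT19 0.674 to 5.32 CPM. Their means varied with the conditions: mean KRT8 went from 5505 to 2583 CPM and KRT18 from 5077 to 1776 CPM with Cisplatin in control cells, and with depletion in untreated cells mean EPCAM went from 10.3 to 92.3 CPM and CDH1 from 162 to 113 CPM. Their part in the results below was not tested. CDKN2A, which A549 cells lack, had no read in any library, and the summed markers of endothelium (PECAM1, VWF, CDH5) did not exceed 0.788 CPM. Of the 4 fibroblast markers COL1A1 had 3.32 to 34.9 CPM and the others at most 0.599 CPM. Replicate 2 of the control cells stood apart in both treatments: 261 and 172 of 9779 genes lay at least 2-fold from the mean of the other libraries of its condition, against 25 to 50 genes for the other control libraries and 2 to 16 for the depleted ones. Several of the genes below were among those that differed, so values without both of these libraries are given where a call or a value turns on them. That alternative was chosen after the data were seen.

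TEAD proteins bind the letters GGAATG, and these letters are printed in capitals in the 250 bases before the transcript start of 4 of the target genes, to show where these letters lie. The 4 windows were chosen because they hold a match, and not every gene that responds below has one. The sequences are from RefSeq (GRCh38.p14), run 5′ to 3′ on the strand of the gene, and were searched on both strands, so the reverse complement CATTCC is in capitals too. The CTGF window is chr6:131951373-131951622 (minus strand), the ANKRD1 window chr10:90921088-90921337 (minus strand), the AMOTL2 window chr3:134374448-134374697 (minus strand, the second of 2 starts) and the AXL window chr19:41226505-41226754 (plus strand, the second of 2 starts).
CTGF: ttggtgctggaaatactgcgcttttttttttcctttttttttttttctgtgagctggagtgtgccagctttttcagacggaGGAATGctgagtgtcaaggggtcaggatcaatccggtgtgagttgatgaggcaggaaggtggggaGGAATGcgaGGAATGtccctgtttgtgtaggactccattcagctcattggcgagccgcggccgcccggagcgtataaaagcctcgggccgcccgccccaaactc
ANKRD1: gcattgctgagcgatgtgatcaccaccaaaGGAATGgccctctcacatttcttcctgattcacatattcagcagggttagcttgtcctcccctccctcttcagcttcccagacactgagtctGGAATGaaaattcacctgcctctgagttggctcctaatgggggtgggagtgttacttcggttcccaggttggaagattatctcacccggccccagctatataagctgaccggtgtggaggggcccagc
AMOTL2: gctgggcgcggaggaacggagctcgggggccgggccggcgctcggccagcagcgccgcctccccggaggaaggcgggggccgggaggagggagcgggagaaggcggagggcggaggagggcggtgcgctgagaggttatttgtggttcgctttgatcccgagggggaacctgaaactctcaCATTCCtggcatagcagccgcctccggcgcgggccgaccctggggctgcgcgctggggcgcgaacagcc
AXL: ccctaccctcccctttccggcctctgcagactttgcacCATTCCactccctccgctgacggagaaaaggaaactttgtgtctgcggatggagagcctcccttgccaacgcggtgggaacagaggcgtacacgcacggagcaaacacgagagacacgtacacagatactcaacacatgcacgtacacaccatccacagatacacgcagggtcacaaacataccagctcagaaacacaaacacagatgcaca
The matches lay 169, 104 and 95 bases before the start of CTGF, 220 and 128 before ANKRD1, 69 before AMOTL2 and 212 before AXL. YAP1 itself held 1 match, 162 bases before its start. In all, 5 of 10 windows of the 7 genes with an entry held the letters, against 11.9% of 35116 promoter windows of the same length. A match describes these letters and not a bound site. The windows of WWTR1 and LATS2 and the first windows of AMOTL2 and AXL held none. The entry list did not hold CYR61, TEAD1 or TEAD4.

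Per kilobase of transcript, WWTR1 and TEAD1 were the most abundant of the 10 genes in untreated control cells, at 40.1 ± 8.81 and 34.9 ± 5.66 CPM per kilobase (SD, n = 3). AXL followed at 31.9 ± 11.96, CYR61 at 27.7 ± 1.85, AMOTL2 at 21.1 ± 4.87, YAP1 at 18.96 ± 3.44 and TEAD4 at 17.6 ± 2.94 CPM per kilobase. CTGF (7.10 ± 0.715), ANKRD1 (4.44 ± 3.70) and LATS2 (4.43 ± 0.759) were the lowest. Neighbours among the first 7 differed by less than the sum of their SDs, whereas the gap between TEAD4 and CTGF was larger than either SD. In depleted cells with Cisplatin the order was another, with CYR61 first at 60.2 ± 1.74 CPM per kilobase, then AXL at 41.0 ± 2.86, CTGF at 35.5 ± 3.28 and AMOTL2 at 32.2 ± 1.22, all above the 4 factors at 14.6 to 20.5.

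**Figure D1:**
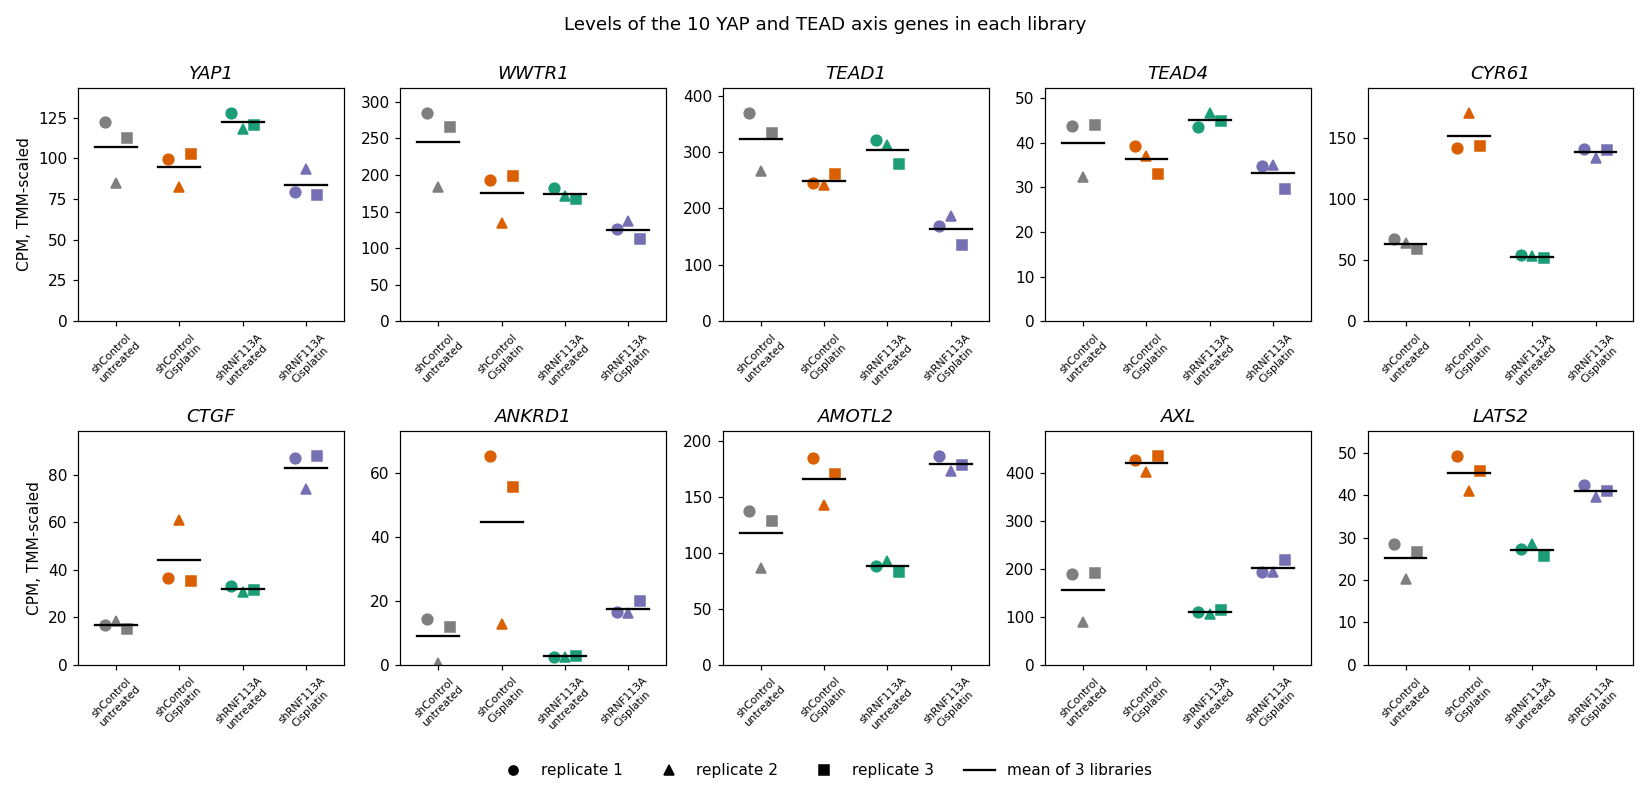
Level of each of the 10 genes in every library, in CPM on an axis from 0, for the 4 conditions; points are libraries and bars are condition means (n = 3). The target genes CYR61, CTGF, ANKRD1, AMOTL2, AXL and LATS2 sit higher in both Cisplatin conditions, and the control replicate 2 libraries are the lowest of their conditions for ANKRD1, at 0.484 and 12.8 CPM.

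Among these 10 genes, though not among the further pathway genes below, Cisplatin moved the factors and their targets in opposite directions. In the model with terms for drug and depletion, 6 of the 10 genes rose (the 6 target genes) and 4 fell (YAP1, WWTR1, TEAD1 and TEAD4) at an adjusted p under 0.05, a limit that 66.8% of all tested genes passed. With a fold change of at least 2 asked as well, 4 rose (CYR61, CTGF, ANKRD1 and AXL) and 0 fell, where 10.3% of all genes were called as higher. The median log2 change of the 10 genes was 0.74, beside 0.03 over all genes. Because the 10 genes were chosen with earlier results of these data known, these counts and medians only describe them.

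Among the factors the falls were modest. YAP1, the coactivator, had 122.6, 85.1 and 113 CPM in untreated control cells, 99.5, 82.3 and 103 CPM with Cisplatin, 128, 118 and 121 CPM in untreated depleted cells and 79.4, 93.2 and 77.5 CPM in depleted cells with Cisplatin. The libraries of the treated and untreated cells overlapped in control cells and were apart in depleted cells. The drug term was -0.36 on the log2 scale (SE 0.10, adjusted p = 0.00726).

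WWTR1, the paralogue of YAP1, had 285, 184 and 266 CPM in untreated control cells against 193, 135 and 198 CPM with Cisplatin, and 182, 171 and 167 CPM in untreated depleted cells against 126, 137 and 113 CPM. In depleted cells every treated library was below every untreated one, and in control cells only replicate 2 of the untreated cells fell into the treated range. The drug term was -0.48 (SE 0.11, adjusted p = 0.00227).

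TEAD1 had the largest fall of the 4 factors, -0.63 (SE 0.11, adjusted p = 0.000249). Its levels were 370, 267 and 334 CPM in untreated control cells, 246, 242 and 261 CPM with Cisplatin, 321, 313 and 278 CPM in untreated depleted cells and 168, 187 and 136 CPM in depleted cells with Cisplatin. The treated libraries were below the untreated ones in both kinds of cell, and those of depleted cells were the lowest. TEAD4 had 43.8, 32.4 and 44.1 CPM in untreated control cells, 39.2, 37.0 and 32.99 CPM with Cisplatin, 43.6, 46.8 and 44.9 CPM in untreated depleted cells and 34.9, 35.0 and 29.6 CPM in treated depleted cells. Its drug term was -0.29 (SE 0.09, adjusted p = 0.0141), and in control cells the treated libraries lay inside the untreated range. With scaling by library size alone the TEAD4 fall did not pass (-0.19, adjusted p = 0.0746).

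CYR61 and CTGF code for secreted matricellular proteins of one family and are among the most used readouts of YAP activity. CYR61 had 67.5, 63.7 and 59.1 CPM in untreated control cells, 142, 170 and 143 CPM with Cisplatin, 53.8, 53.1 and 51.3 CPM in untreated depleted cells and 141, 133 and 140 CPM in treated depleted cells. No treated library overlapped an untreated one, and the rise of 1.32 (SE 0.06, 2.5-fold, adjusted p = 7.93e-10) had the smallest error of the 10 genes. CTGF had 16.7, 18.2 and 14.9 CPM in untreated control cells, 36.4, 60.9 and 35.4 CPM with Cisplatin, 33.3, 30.5 and 31.5 CPM in untreated depleted cells and 87.1, 74.2 and 87.9 CPM in treated depleted cells. Untreated depleted cells thus stood just below treated control cells, and the drug term was 1.40 (SE 0.12, 2.64-fold, adjusted p = 2.99e-07).

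ANKRD1, a nuclear ankyrin-repeat protein first known from muscle, had the largest drug term and the largest spread. In untreated control cells its levels were 14.3, 0.484 and 11.6 CPM and with Cisplatin 65.1, 12.8 and 55.5 CPM. In depleted cells they were 2.41, 2.52 and 2.77 CPM untreated and 16.5, 16.0 and 19.9 CPM with Cisplatin. Replicate 2 was far below the other control libraries in both treatments, while the depleted libraries lay close together. The rise was 2.54 (SE 0.53, 5.80-fold, adjusted p = 0.00085).

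AMOTL2, an angiomotin family protein that binds YAP1 and holds it outside the nucleus, had 137, 86.8 and 129 CPM in untreated control cells, 185, 143 and 171 CPM with Cisplatin, 87.9, 93.1 and 82.6 CPM in untreated depleted cells and 187, 173 and 179 CPM in treated depleted cells. The treated libraries were above the untreated ones in both kinds of cell, and the rise was 0.76 (SE 0.12, 1.70-fold, adjusted p = 0.000105). LATS2, the kinase that phosphorylates YAP1, had 28.5, 20.3 and 26.6 CPM and then 49.2, 41.1 and 45.8 CPM with Cisplatin in control cells, and 27.2, 28.5 and 25.6 CPM and then 42.5, 39.5 and 41.0 CPM in depleted cells. Its libraries did not overlap between treatments, and the rise was 0.72 (SE 0.09, 1.65-fold, adjusted p = 7.63e-06).

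AXL, a receptor tyrosine kinase linked to drug tolerance of lung cancer cells, had 189, 88.5 and 191 CPM in untreated control cells, 427, 400 and 434 CPM with Cisplatin, 111, 106 and 114 CPM in untreated depleted cells and 193, 193 and 217 CPM in treated depleted cells. The treated depleted libraries lay far below the treated control libraries and close above the 2 higher untreated control libraries. The drug term was 1.15 (SE 0.17, 2.22-fold, adjusted p = 3.40e-05). Without replicate 2 of the untreated control cells it was 0.99 and under the limit of 2-fold, which left 3 genes called. It was also 0.99 without both control replicate 2 libraries.

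Read within each kind of cell, Cisplatin called 4 genes as higher in control cells (CYR61, CTGF, ANKRD1 and AXL), where 9.16% of all genes were called as higher, and 4 in depleted cells (CYR61, CTGF, ANKRD1 and AMOTL2), where 11.6% were. CYR61 rose by 1.26 (SE 0.08, adjusted p = 1.26e-07) in control cells and 1.39 (SE 0.08, adjusted p = 5.53e-08) in depleted cells, and CTGF by 1.41 (SE 0.18) and 1.39 (SE 0.18). ANKRD1 rose by 2.34 (SE 0.75, adjusted p = 0.0187) in control cells and 2.77 (SE 0.82, adjusted p = 0.0109) in depleted cells. The ANKRD1 call in control cells was lost without replicate 1 of the treated control cells (1.97, adjusted p = 0.0619). AMOTL2 rose by 0.50 (SE 0.15, adjusted p = 0.0118) in control and 1.03 (SE 0.15, 2.04-fold, adjusted p = 6.87e-05) in depleted cells. Its call in depleted cells stood near the limit. DESeq2 gave 0.99 and so called 3 genes, and the change fell to between 0.97 and 0.99 when treated control library 1, 2 or 3, untreated depleted library 3 or treated depleted library 1 was left out.

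The falls of the factors were also read within each kind of cell. In control cells WWTR1 (-0.48, SE 0.17, adjusted p = 0.0271) and TEAD1 (-0.38, SE 0.13, adjusted p = 0.0265) fell, and YAP1 (-0.17, adjusted p = 0.283) and TEAD4 (-0.14, adjusted p = 0.346) did not pass. Both falls lost the adjusted p limit when any of several single control libraries was left out: WWTR1 without untreated library 1 or 3 or treated library 2 (-0.36, -0.42 and -0.32), and TEAD1 without untreated library 1 or 3 or any treated library (-0.27 to -0.39). They also lost it with scaling by library size (-0.38, adjusted p = 0.05005, and -0.27, adjusted p = 0.0818). Equally numbered control libraries deviated together, and in the paired fit of control cells WWTR1 (-0.48, SE 0.08, adjusted p = 0.000161) and TEAD1 (-0.36, SE 0.09, adjusted p = 0.00402) fell, while YAP1 (-0.16, adjusted p = 0.112) and TEAD4 (-0.13, adjusted p = 0.332) did not pass. Without untreated control replicate 2, YAP1 (-0.31, adjusted p = 0.0226) and TEAD4 (-0.27, adjusted p = 0.0268) passed. In depleted cells all 4 factors fell, by -0.55 for YAP1 (SE 0.13, adjusted p = 0.00282), -0.47 for WWTR1 (SE 0.17, adjusted p = 0.0289), -0.89 for TEAD1 (SE 0.13, 1.86-fold, adjusted p = 8.03e-05) and -0.44 for TEAD4 (SE 0.12, adjusted p = 0.00694). The WWTR1 fall there lost the limit without untreated depleted library 1 or 2 or treated depleted library 3 (-0.43, -0.48 and -0.40). TEAD1 was called as lower, at -1.04, without treated depleted library 2. In such bulk libraries, fewer cells that carry a transcript and less of it in each cell cannot be told apart.

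**Figure D2:**
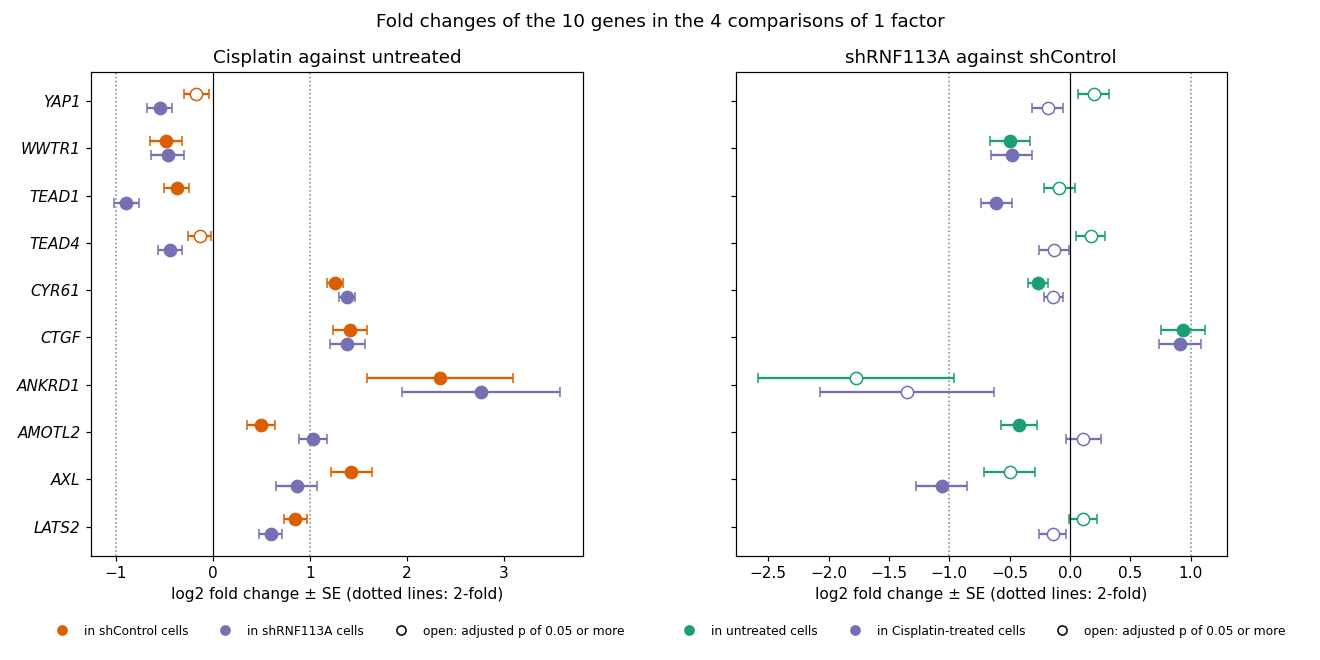
Log2 change of each of the 10 genes for Cisplatin and for depletion within each setting of the other factor, with bars of 1 standard error from edgeR. CYR61 and CTGF changes upon Cisplatin lie between 1.26 and 1.41 in both kinds of cell, whereas upon depletion CTGF is the only gene with changes near 0.9 in both treatments and AXL reaches -1.06 in Cisplatin-treated cells.

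RNF113A depletion raised 1 of the 10 genes and lowered 5, at an adjusted p under 0.05 that 47.5% of all genes passed. The model with both terms takes the 6 control libraries as independent, although equally numbered ones deviated together across treatments. Its p-values for depletion may therefore be too small. CTGF rose by 0.92 (SE 0.12, 1.90-fold, adjusted p = 6.08e-05) in the model with both terms. ANKRD1 (-1.54, SE 0.52, 2.91-fold, adjusted p = 0.0267), AXL (-0.78, SE 0.16, 1.72-fold, adjusted p = 0.00179), WWTR1 (-0.49, SE 0.11, adjusted p = 0.0035), TEAD1 (-0.35, SE 0.11, adjusted p = 0.0230) and CYR61 (-0.20, SE 0.06, adjusted p = 0.0155) fell. AMOTL2 (-0.15, adjusted p = 0.323), YAP1 (0.01), TEAD4 (0.02) and LATS2 (-0.02) did not pass. Without both control replicate 2 libraries AMOTL2 passed (-0.30, SE 0.10, adjusted p = 0.0213). The target genes therefore did not move together: CTGF and CYR61, 2 secreted proteins of one family, had changes of opposite sign. ANKRD1 was the only gene called, as lower, where 5.52% of all genes were. The median of the 10 genes was -0.18, beside -0.00 over all genes.

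The ANKRD1 call depended on single libraries. It was lost without untreated control library 1 (-1.31) or 3 (-1.42), treated control library 1 (-1.41), or untreated depleted library 1 (-1.498) or 2 (-1.51), with adjusted p from 0.0501 to 0.0599. With a replicate block over all libraries it was lost too (-1.16, adjusted p = 0.0524). The TEAD1 fall lost its limit without treated depleted library 3 (-0.27, adjusted p = 0.0504). Without treated control library 2, or without both control replicate 2 libraries, CTGF was called as well, and in the latter case its rise was 1.11 and the ANKRD1 fall -2.02.

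In untreated cells, depletion passed the adjusted p limit for 4 of the 10 genes, where 27.4% of all genes did. CTGF rose by 0.94 (SE 0.18, 1.91-fold, adjusted p = 0.00246), and WWTR1 (-0.50, SE 0.17, adjusted p = 0.0438), CYR61 (-0.27, SE 0.08, adjusted p = 0.0307) and AMOTL2 (-0.42, SE 0.15, adjusted p = 0.0491) fell. For these 3 falls the adjusted p rose above 0.05 upon leaving out single libraries, namely untreated control library 1 or 3, any untreated depleted library or treated depleted library 1 or 3 for WWTR1 (-0.37 to -0.54), untreated control library 1 or any untreated depleted library for CYR61 (-0.22 to -0.28), and untreated control library 1 or 3, treated control library 3 or any depleted library for AMOTL2 (-0.30 to -0.47). Without both control replicate 2 libraries all 3 passed, at -0.67 for WWTR1 (adjusted p = 4.89e-06), -0.26 for CYR61 (adjusted p = 0.00635) and -0.60 for AMOTL2 (adjusted p = 5.04e-06). With scaling by library size CYR61 did not pass (-0.25, adjusted p = 0.0609). No gene was called at 2-fold by edgeR or by DESeq2, and 6 had an unadjusted p under 0.05, as had 6069 of all 15352 genes tested. ANKRD1 had a log2 change of -1.77 (SE 0.81, adjusted p = 0.125) and AXL of -0.50 (SE 0.21, adjusted p = 0.0985).

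Both of these values turned on replicate 2 of the untreated control cells, with 0.484 CPM of ANKRD1 and 88.5 CPM of AXL. Without that library ANKRD1 was at -2.34 (adjusted p = 0.00408) and AXL at -0.78 (adjusted p = 1.07e-05), and 2 genes, ANKRD1 and CTGF, were called. Without both control replicate 2 libraries the same 2 genes were called, with ANKRD1 at -2.34 (SE 0.14, adjusted p = 2.63e-09) and CTGF at 1.01 (adjusted p = 3.69e-07). What sets these libraries apart was not tested.

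In Cisplatin-treated cells, depletion passed the adjusted p limit for 4 genes, where 42.9% of all genes did. CTGF rose by 0.91 (SE 0.17, 1.88-fold, adjusted p = 0.00152), and AXL (-1.06, SE 0.21, 2.09-fold, adjusted p = 0.00191), TEAD1 (-0.61, SE 0.13, 1.53-fold, adjusted p = 0.00283) and WWTR1 (-0.48, SE 0.17, adjusted p = 0.0346) fell. AXL was the only gene called, as lower, where 5.42% of all genes were. The WWTR1 fall lost its limit without treated control library 1 or 3 (-0.46 and -0.44) or treated depleted library 1 or 3 (-0.54 and -0.41). ANKRD1 did not pass (-1.35, SE 0.72, adjusted p = 0.150), but it was called without untreated control library 2 (-1.35, adjusted p = 0.0149), and without treated control library 2 (-1.84, adjusted p = 0.0381), where CTGF was called too (1.16). Without both control replicate 2 libraries, CTGF (1.21), ANKRD1 (-1.79, SE 0.11, adjusted p = 4.76e-09) and AXL (-1.10) were called, and YAP1 (-0.28, adjusted p = 0.00797) and LATS2 (-0.21, adjusted p = 0.0254) passed as well. CTGF was higher in depleted cells in each of the 2 treatments. These 2 depletion contrasts share no library, but they are not independent. Equally numbered control libraries deviated together across treatments, and 1 fit gave both errors.

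**Figure D3:**
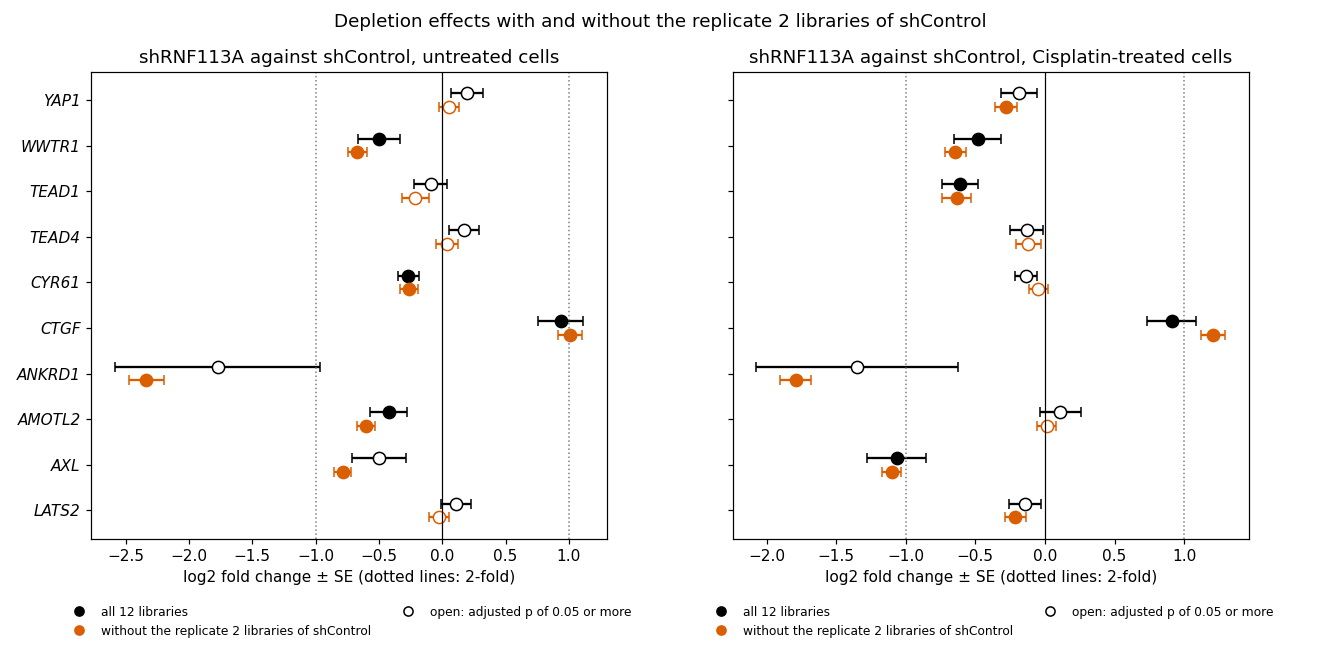
Log2 change upon depletion for each of the 10 genes in untreated and in Cisplatin-treated cells, with all libraries and without both control replicate 2 libraries, with bars of 1 standard error. For ANKRD1 the change in untreated cells goes from -1.77 with an error of 0.81 to -2.34 with an error of 0.14, and for AXL from -0.50 to -0.79.

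Whether Cisplatin acted differently in depleted and control cells was tested by the interaction term. It passed for 0 of the 10 genes, where 4.25% of all genes passed. An unadjusted p under 0.05 was found for 2 of them, and for 3318 of all 15352 genes tested. These 2 were TEAD1 (-0.52, SE 0.18, adjusted p = 0.125) and AMOTL2 (0.53, SE 0.21, adjusted p = 0.157). DESeq2 called 0 as well. The terms for YAP1 (-0.38, SE 0.18, adjusted p = 0.254), AXL (-0.56, SE 0.30, adjusted p = 0.302), TEAD4 (-0.30, SE 0.17, adjusted p = 0.331) and LATS2 (-0.25, SE 0.16, adjusted p = 0.404) were below 0, so the different fold changes of AXL and of the factors in the 2 kinds of cell were not separated by this test. CYR61 (0.13, SE 0.12, adjusted p = 0.568), WWTR1 (0.02), CTGF (-0.03, SE 0.25, adjusted p = 0.969) and ANKRD1 (0.42, SE 1.07, adjusted p = 0.864) did not pass either, and for ANKRD1 the error was larger than the term. AMOTL2 passed without untreated control replicate 2 (0.71, adjusted p = 0.00928). Without both control replicate 2 libraries AMOTL2 (0.61, adjusted p = 0.0011), ANKRD1 (0.55, adjusted p = 0.0492) and AXL (-0.32, adjusted p = 0.0346) passed, and none reached 2-fold.

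Because RNF113A acts in splicing, intronic reads were set against exonic reads of each gene. The spans of the 10 genes differ widely (hg19, Gencode v19), from CTGF at chr6:132269316-132272513 with 3198 bp and CYR61 at chr1:86046444-86049645 with 3202 bp to WWTR1 at chr3:149235022-149454501 with 219480 bp and TEAD1 at chr11:12695969-12966298 with 270330 bp. Over 11354 tested genes the median was 5.74 intronic reads per 100 exonic reads in untreated control cells, 7.28 after Cisplatin, and 7.96 and 14.3 in the untreated and treated depleted cells. The means of the 4 factors, AXL and CYR61 were likewise lowest in untreated control and highest in treated depleted cells. Those of AMOTL2 and CTGF were also highest in treated depleted cells, but lowest in treated control cells.

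YAP1 had 5.45, 6.16 and 7.002 intronic reads per 100 exonic reads in untreated control cells, 8.90, 8.23 and 13.2 with Cisplatin, 6.92, 7.70 and 6.55 in untreated depleted cells and 17.5, 17.5 and 16.9 in treated depleted cells. AXL had 1.68, 1.69 and 1.71, then 3.15, 2.41 and 5.08, then 3.22, 3.63 and 2.65, and then 10.4, 10.1 and 11.4 in the same order. For both genes all treated depleted libraries were above all others. TEAD4 went from 4.73 ± 0.823 in untreated control cells to 20.9 ± 2.72 in treated depleted cells (SD, n = 3), TEAD1 from 3.79 ± 0.659 to 15.4 ± 1.89 and WWTR1 from 2.00 ± 0.232 to 8.12 ± 1.85.

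The short genes CYR61 and CTGF had low ratios, with CYR61 means of 1.78 in untreated control and 3.40 ± 0.129 in treated depleted cells and CTGF means of 1.78 and 1.96. ANKRD1 stood at 8.05 ± 2.14 in untreated control, 7.62 ± 2.65 in treated control, 18.6 ± 2.94 in untreated depleted and 16.9 ± 2.25 in treated depleted cells, and its depleted libraries were all above its control libraries. These ANKRD1 ratios rest on few intronic reads, 2 to 35 in untreated control and 14 to 20 in untreated depleted libraries. LATS2 had the highest ratio in untreated control cells, 16.5, and had 10.2 with Cisplatin.

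Depletion in Cisplatin-treated cells raised the ratio of 8 of the 10 genes, where 81.9% of all genes rose. The log2 changes were 1.75 for TEAD4 (adjusted p = 4.53e-06), 1.64 for AXL (adjusted p = 3.42e-06), 1.29 for TEAD1, 1.13 for WWTR1, 1.10 for ANKRD1, 1.00 for AMOTL2, 0.80 for YAP1 (adjusted p = 0.000749) and 0.80 for CYR61 (adjusted p = 0.00974). CTGF (0.73, adjusted p = 0.0677) and LATS2 (0.38, adjusted p = 0.0624) did not pass, but both passed without treated control library 3 (1.58 and 0.52), and CYR61 no longer passed without treated control library 2 (0.45). The median of the 10 genes was 1.05, beside 0.97 over all genes, so the share and the size were near those of the whole transcriptome. In untreated cells depletion raised the ratio of 4 genes, TEAD1 (0.61, adjusted p = 0.0494), TEAD4 (0.67, adjusted p = 0.0433), ANKRD1 (1.42, adjusted p = 0.00984) and AXL (0.90, adjusted p = 0.0127), where 28.1% of all genes rose. TEAD1 and TEAD4 no longer passed without any 1 of the untreated control or treated depleted libraries, treated control library 1 or untreated depleted library 1 or 3, which left 2 genes, and without untreated depleted library 2 there were 0. Without treated control library 2 or 3 there were 7, with WWTR1 (0.51), CYR61 (0.66) and AMOTL2 (0.48) in addition.

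Cisplatin in depleted cells raised the ratio of 5 genes, YAP1 (1.29, SE 0.19, adjusted p = 8.02e-06), WWTR1 (1.49, adjusted p = 1.66e-06), TEAD1 (1.42, adjusted p = 2.28e-05), TEAD4 (1.46, adjusted p = 1.67e-05) and AXL (1.74, SE 0.22, adjusted p = 1.19e-06), where 63.9% of all genes rose. The other target genes had values of 0.29 for CYR61, 0.28 for CTGF, -0.16 for ANKRD1, 0.07 for AMOTL2 and -0.05 for LATS2, none of which passed. The split thus lay between the 4 factors with AXL and the other 5 target genes. The median was 0.79, beside 0.75 over all genes. In control cells Cisplatin raised the ratio of 4 genes, YAP1 (0.69, adjusted p = 0.0159), WWTR1 (0.87, adjusted p = 0.00284), TEAD1 (0.74, adjusted p = 0.0289) and AXL (1.00, adjusted p = 0.00316), where 16.1% of all genes rose, and lowered that of LATS2 (-0.69, adjusted p = 0.0145), where 1.14% of all genes fell. In control cells 3 genes in place of 5 passed without untreated library 1 or 2 or treated library 1, and 6 without treated library 3.

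The 2 Cisplatin effects on the ratio were also compared directly, a test chosen after the data were seen. It passed for 0 of the 10 genes, where 3.25% of all genes passed as higher, and 6 had an unadjusted p under 0.05 by edgeR, the one tool run. The share of all genes under that unadjusted limit was not counted. TEAD4 came nearest, with a difference of 1.08 (SE 0.34, adjusted p = 0.0690), and AXL had 0.74 (SE 0.31, adjusted p = 0.146) and YAP1 0.61 (SE 0.27, adjusted p = 0.161). Without treated control library 3, which had the highest ratio of its condition for all 10 genes, 8 genes passed (all but CYR61 and ANKRD1), with TEAD4 at 1.39 (adjusted p = 0.00132) and AXL at 1.04 (adjusted p = 0.00208). The share of all genes that passed without that library is not given here, so the count of 8 has no background beside it. Without untreated control library 2, or both control replicate 2 libraries, TEAD4 alone passed.

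**Figure D4:**
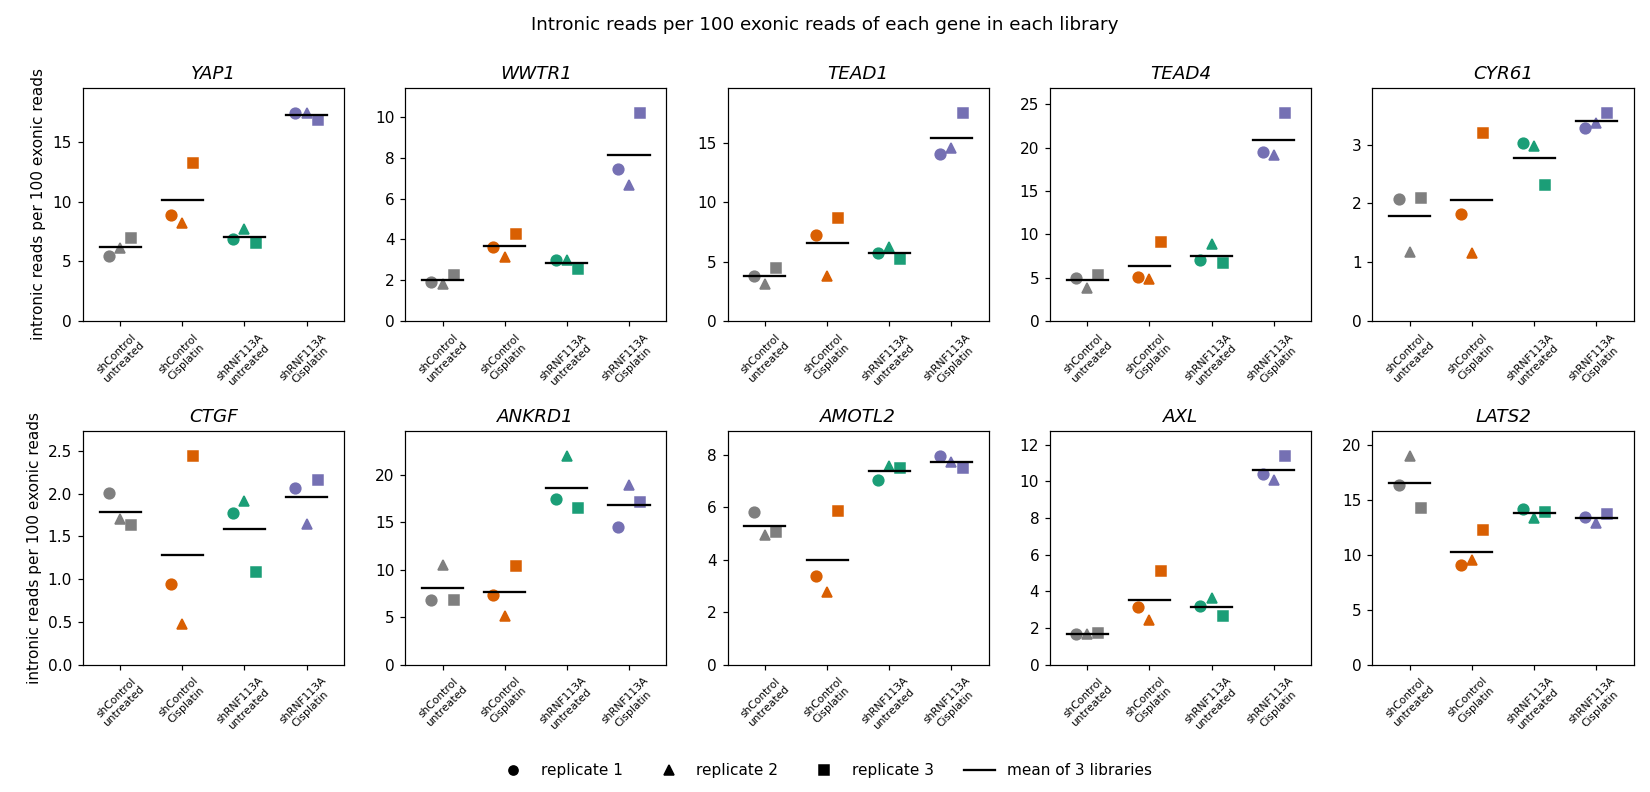
Intronic reads per 100 exonic reads of each of the 10 genes in every library, on an axis from 0, for the 4 conditions. The 4 factors, AXL, CYR61, AMOTL2 and CTGF have their highest means in treated depleted cells. AXL stands there at 10.4, 10.1 and 11.4 against 1.68 to 1.71 in untreated control cells, whereas CTGF means stay between 1.29 and 1.96.

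Splicing events of the 10 genes were read from inclusion and skipping reads. Of the events tested, 50 for Cisplatin in control cells, 56 for Cisplatin in depleted cells, 46 for depletion in untreated cells and 53 for depletion in treated cells, 0 were called at an adjusted p under 0.05 and mean inclusion levels 0.2 apart in each comparison. Of all skipped exon events 0.156%, 0.33%, 0.0419% and 0.11% were called in the same order. Among alternative splice sites and mutually exclusive exons at most 0.598% were called in any comparison. A count of 0 among the events of the 10 genes is near these shares. Calls were more frequent among retained introns, at 0.029%, 1.06%, 0.99% and 2.23% in the same order. By the same edgeR test 2, 5, 2 and 2 events had an unadjusted p under 0.05, a share that was not counted over all events. No other tool was run. The event that passed the adjusted p alone was the inclusion of a 129-nt TEAD4 exon (hg19 chr12:3126564-3126692, plus strand), whose level was 0.902, 0.978 and 0.902 in the 3 untreated control libraries and 0.978, 1 and 0.982 with Cisplatin. The means were 92.7% ± 4.38 and 98.7% ± 1.18 (SD, n = 3, adjusted p = 0.0471), and in depleted cells 94.8% and 97.6% (adjusted p = 0.696). Of all skipped exon events, 1.43% passed for Cisplatin in control cells, 2.6% for Cisplatin in depleted cells, 0.537% for depletion in untreated cells and 1.6% for depletion in treated cells. A 140-nt exon of AXL (chr19:41744375-41744514) was included at 97.5% ± 1.28 in untreated and 91.0% ± 4.57 in treated depleted cells, which missed the limit (adjusted p = 0.0766). The tables held 0 retained introns of these genes.

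The other genes of the pathway did not share a direction. Of 31 further Hippo pathway genes, 30 were tested, and 14 rose and 8 fell upon Cisplatin, where 66.8% of all genes passed, with 4 called in each direction, where 10.3% of all genes were called as higher and 11.2% as lower. AJUBA (1.61, SE 0.17, adjusted p = 1.42e-06), a LIM protein that restrains LATS kinases, and TEAD3 (1.42, adjusted p = 9.21e-09), a paralogue of TEAD1, had the largest called rises, while the kinase STK3 (-1.76, adjusted p = 5.42e-09) and the WW-domain protein WWC3 (-1.40, adjusted p = 9.03e-08) had the largest called falls of those at 1 CPM or more on average. TEAD3 mean levels went from 10.4 to 25.4 CPM in control cells and from 8.09 to 23.9 CPM in depleted cells, opposite to TEAD1 and TEAD4. TEAD2, named after its value was seen, fell as TEAD1 and TEAD4 did (-0.89, SE 0.09, adjusted p = 1.66e-06). Upon depletion 5 rose and 11 fell, where 47.5% of all genes passed, and 2 were called as lower, where 5.52% of all genes were. These were VGLL3 (-1.76, SE 0.27, adjusted p = 0.000189), a cofactor that binds TEAD proteins, and AMOT (-1.38, adjusted p = 0.00487), which had a mean of only 0.725 CPM and is named after its value was seen. In control cells VGLL3 had 7.85, 18.4 and 21.2 CPM untreated and 27.4, 61.8 and 62.2 CPM with Cisplatin, in rising order. Its depleted libraries had 5.29 to 7.35 CPM untreated and 10.4 to 11.9 CPM with Cisplatin, so the lowest untreated control library stood close to them. For the interaction, TAOK2, likewise named after its value was seen, passed (0.45, adjusted p = 0.0269).

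Of 16 other genes known as YAP and TEAD targets, all tested, 2 rose and 4 fell upon Cisplatin, where 66.8% of all genes passed, 10.3% were called as higher and 11.2% as lower. GADD45A (3.32, adjusted p = 6.57e-09), which is also a p53 target, was called as higher, and ASAP1 (-1.01, adjusted p = 7.00e-07) as lower. RBMS3, at a mean of 0.823 CPM, was called as lower too. Upon depletion 3 rose and 7 fell, where 47.5% of all genes passed, 5.47% were called as higher and 5.52% as lower. NT5E (1.73, adjusted p = 2.27e-06), the ectonucleotidase CD73, was called as higher, and CCDC80 (-1.27, adjusted p = 0.00162), FOXF2 (-1.004, adjusted p = 0.000531) and RBMS3 (-1.07, adjusted p = 0.0261) were called as lower. RBMS3 was named after its values were seen.

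The genes whose pattern over the 12 libraries was most like that of CYR61 were EML2, CSF1 and MAST3, at a root mean square difference of centred log2 CPM of 0.0922, 0.0946 and 0.102, where the median was 0.701 over all genes of 10 CPM or more on average. Within the 10 genes AMOTL2 was nearest to CYR61 (0.356) and CTGF (0.589) the fourth nearest. For YAP1 the nearest genes were SYNCRIP, KHDRBS1 and CAPRIN1, at 0.0686, 0.0797 and 0.0808, with a median of 0.375, and TEAD4 (0.130) was the nearest of the 10 genes, before TEAD1 (0.249) and WWTR1 (0.278).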

How the data were processed

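Stranded mRNA libraries were sequenced in paired ends over 2 runs. The authors aligned the reads to hg19 with STAR 2.5.2b (submitters' processing notes) and deposited raw counts of read pairs per gene without normalization, and raw HTSeq counts (mode intersection-strict, protein-coding Gencode v19) over exons and over whole genes. Intronic reads are whole-gene minus exonic counts. The deposited rMATS tables hold inclusion and skipping counts. Their columns of p-values, FDR and inclusion differences come from the authors' own test and were not used, nor was a merged annotation.

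Counts on the gene strand were tested in R 4.3.3 with edgeR 4.0.16 (TMM scaling, filterByExpr, quasi-likelihood test, Benjamini-Hochberg over all genes). Drug and depletion terms came from the additive model, other contrasts from the model with interaction. Genes were called at an adjusted p under 0.05 and 2-fold. Intronic against exonic reads (at least 10 exonic reads in every library) and inclusion against skipping reads (at least 10 reads) were fitted with library terms, the latter with the quasi-likelihood dispersion alone. DESeq2 1.42.0 was an alternative. Each script was tested on simulated data. Standard errors (SE) cover the spread between libraries and counting error.

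The 10 genes and all lists were chosen with earlier results of these data known. The text names every one of the 10 genes, RNF113A, for each pathway list the called genes with the largest rises and falls for each factor (at most 2 in each direction, mean of at least 1 CPM), and the 3 genes most like CYR61 and YAP1. AMOT, RBMS3, TAOK2 and TEAD2 were added after their values were seen. Equally numbered libraries of untreated and treated control cells deviated together (r = 0.63, 0.73 and 0.48 across 9779 genes), so their numbers were taken as pairs for Cisplatin in control cells. The pairing rests on these values alone, and the main additive model did not use it. In depleted cells r was 0.41, -0.065 and 0.30 for equal numbers and at most 0.29 for unequal ones. No pairs were taken there, because r had to exceed 0.1 for every number. Between control and depleted cells it did not do so either. Alternatives were counts of both strands, other scalings and filters, 1.5-fold or no fold limit, a replicate block, and leaving out each library. Figures were drawn with matplotlib 3.10.9. The result of 1 list of cell type markers is not reported here.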

Additional observations from a re-analysis of the deposited data

Results flagged for a closer look

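No member of the 10 genes had a Cisplatin effect that differed between depleted and control cells by the interaction test. Of the 16 other targets of the axis 2 did, where 4.25% of all genes passed. FOXF2 had means of 16.5 CPM in untreated and 14.1 CPM in treated control cells and of 5.82 and 9.84 CPM in depleted cells. Its Cisplatin effects were -0.23 (adjusted p = 0.228) and 0.76 (adjusted p = 0.00143), and their difference was 0.99 (SE 0.22, adjusted p = 0.0308 by edgeR). GADD45A had means of 12.8 and 181 CPM in control cells and of 18.7 and 133 CPM in depleted cells. Its Cisplatin effects were 3.82 and 2.83, and their difference was -0.99 (SE 0.24, adjusted p = 0.0431 by edgeR). The mean in treated control cells leaned on 1 library, as the levels were 143, 155 and 246 CPM. Treated depleted cells had 119, 131 and 150 CPM. Neither FOXF2 nor GADD45A was refitted with single libraries left out.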

How the results depend on the processing

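Among the changes of single genes and the counts of called genes, most kept their direction and their side of the threshold. With a limit of 1.5-fold, 7 of the 10 genes were called for Cisplatin, 3 for depletion, 7 for Cisplatin in depleted cells, 1 for depletion in untreated and 3 in treated cells. With no fold limit these were 10, 6, 10, 4 and 4, and 8 for Cisplatin in control cells. The shares of all genes with no fold limit were 66.8%, 47.5%, 60.2%, 27.4% and 42.9%, and 55% for Cisplatin in control cells. Those at 1.5-fold are not given here, so the counts at that limit have no background beside them. Without both control replicate 2 libraries, 2 were called for depletion, 2 in untreated and 3 in treated cells, and 1 gene passed for the difference of the Cisplatin effects on the intronic ratio. With genic reads in place of intronic reads, which dilutes the change by construction, 0 genes passed for Cisplatin in control cells, 0 for depletion in untreated and 5 in treated cells. Without a limit on the inclusion level 1 splicing event was called for Cisplatin in control cells.

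Leaving out each library in turn gave 0 to 2 called genes for depletion, 0 to 2 in untreated and 1 to 3 in treated cells. Changed intronic ratios ranged from 3 to 6 genes for Cisplatin in control cells, 0 to 7 for depletion in untreated cells and 0 to 8 for the difference of the Cisplatin effects. Changes near 0 turned sign. For depletion YAP1 was -0.0030 with both strands, -0.019 with median-ratio size factors, -0.019 with DESeq2 and -0.11 without both control replicate 2 libraries, and ranged from -0.079 to 0.051 when single libraries were left out. TEAD4 was -0.0049, -0.0047 and -0.042 with the last 3 of these, and ranged from -0.058 to 0.071. LATS2 was 0.0014 when scaled by library size and ranged from -0.093 to 0.0090. For the interaction WWTR1 was -0.012 with median-ratio size factors, -0.012 with DESeq2 and -0.00047 with no count filter, and ranged from -0.18 to 0.18. CTGF was 0.20 without both control replicate 2 libraries and ranged from -0.22 to 0.23, and ANKRD1 from -0.12 to 0.99. For depletion in untreated cells LATS2 was -0.024 without both control replicate 2 libraries and ranged from -0.024 to 0.21, and TEAD1 from -0.21 to 0.018. AMOTL2 ranged from -0.033 to 0.14 for depletion in treated cells. For the intronic ratio upon Cisplatin in control cells CYR61 ranged from -0.28 to 0.49 and ANKRD1 from -0.082 to 0.34, for depletion in untreated cells CTGF from -0.31 to 0.042, and for the difference CYR61 from -0.21 to 0.56. None of these passed the threshold in the fit of all libraries. The cause of these moves was not tested.

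With a replicate block over all libraries, 0 genes were called for depletion, where ANKRD1 had -1.16 (adjusted p = 0.0524). In the paired fit of control cells alone the same 4 genes as before were called for Cisplatin. For the intronic ratio WWTR1 passed as a further gene for depletion in untreated cells under the replicate block (0.51, adjusted p = 0.0489). No other count of called genes changed under the block. No paired analysis was possible for splicing because the tables do not name their libraries. Low ANKRD1 counts in control replicate 2 and few intronic reads of CTGF, CYR61 and ANKRD1 limit those values.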
